A study of Homo sapiens with 8 samples.

Results

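Lysosomal enzymes and membrane proteins were followed through 30 genes, chosen by symbol: 10 proteases, 8 glycosidases counted with the sulfatase IDS, 6 lipid enzymes and soluble cofactors, and 6 membrane proteins. The array carried 36 probes for them among 20589 probes for 18127 genes. Of these, 35 carried 29 of the symbols, and CTSA was found under its older symbol PPGB. The cells were MCF10A-5E, a clone of the human breast epithelial line MCF10A, which is immortal but forms no tumours. They were grown to day 6 on Matrigel, a reconstituted basement membrane, in medium with horse serum, hydrocortisone, cholera toxin, insulin and EGF, where they form rounded structures called acini. All samples shared the clone, the medium and the day, and none carried a further treatment. The groups were 4 arrays of outer cells, which touch the matrix, and 4 arrays of inner cells, which do not. Each sample held about 50 cells cut by laser from 8 µm sections, and poly(A) PCR amplified its RNA before hybridisation to Illumina HumanRef-8 v2.0 arrays. Nothing in the labels ties the 4 arrays of a group to separate cultures, and the design text speaks of amplification in quadruplicate. The p-values thus weigh differences against the spread of these arrays alone, which may be technical.

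Lysosomes are acidic compartments in which material taken up by endocytosis or delivered by autophagy is broken down. Soluble hydrolases are made in the endoplasmic reticulum, most of them receive a mannose 6-phosphate tag in the Golgi, and receptors that bind this tag carry them to endosomes. A V-type ATPase pumps in the protons that the hydrolases need, and heavily glycosylated membrane proteins line the membrane from within. The transcription factor TFEB and its relatives bind the E-box CACGTG in promoters of many lysosomal genes, within a longer palindrome called the CLEAR element, and the kinase mTORC1 on the lysosome's surface keeps TFEB in the cytoplasm. Secreted cathepsins can also cut proteins of the extracellular matrix.

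The E-box was not used to choose the genes, but it is known from promoters of lysosomal genes. Its share among the members is therefore not independent of their choice. Its sites are shown here because the members could share a regulator through them, which was not tested. RefSeq promoter windows (GRCh38.p14, 300 bases around a gene's start) were matched for 22 of the 30 genes, with 32 windows in all. CACGTG, which reads the same on both strands, stood in 7 of these 22 genes (31.8%), against 10.9% of 15843 protein-coding genes and 8.77% of all 27305 genes with a window. Over windows the share was 21.9% for the lysosomal genes and 7.26% for all 35116 windows. The longer TCACGTGA, which contains CACGTG, stood in 12.5% of the lysosomal windows and 0.980% of all windows, in LAMP1, GAA, MCOLN1 and CTSA. These are matches of letters, not measured binding sites. LAMP1 held 6 copies in its window at chr13:113296989-113297288 on the plus strand, more than any other member, and its window is given whole with CACGTG in capitals.
LAMP1: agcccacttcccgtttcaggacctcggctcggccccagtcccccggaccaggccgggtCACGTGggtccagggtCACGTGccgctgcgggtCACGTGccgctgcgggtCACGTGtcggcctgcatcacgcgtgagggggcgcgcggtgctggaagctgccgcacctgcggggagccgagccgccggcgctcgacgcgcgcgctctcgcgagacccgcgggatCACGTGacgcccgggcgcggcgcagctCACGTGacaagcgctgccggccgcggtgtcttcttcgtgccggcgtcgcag

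The other 6 genes held 1 or 2 copies each, shown with 10 bases on either side, 5′ to 3′ on the gene's strand. They lie at chr17:80101495-80101520 and chr17:80101540-80101565 for GAA, chr19:7522573-7522598 and chr19:7522600-7522625 for MCOLN1, and chr20:45891283-45891308 and chr20:45891300-45891325 for CTSA, all on the plus strand. Those of CTSD at chr11:1763959-1763984, CD63 at chr12:55729174-55729199 and NEU1 at chr6:31862932-31862957 are on the minus strand. CD63 had 8 windows in the table, and 1 of them held the motif.
GAA, upstream copy: gaggccgcgtCACGTGacccaccgcg
GAA, downstream copy: tcccgccggtCACGTGacccgcctct
MCOLN1, upstream copy: cagaggcggtCACGTGaggggctctg
MCOLN1, downstream copy: gctaccgggtCACGTGaccgaggcac
CTSA, upstream copy: ggaagactgtCACGTGgcgccggagt
CTSA, downstream copy: cgccggagttCACGTGactcgtacac
CTSD: cggccgcgccCACGTGaccggtccgg
CD63: gggtaggggcCACGTGgccctggccg
NEU1: gctgcgtgatCACGTGggaggagatg

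Across the arrays, the lysosomal genes differed little between outer and inner cells relative to the spread between arrays. Intensities were background-corrected, quantile-normalised and given as log2 levels, and a difference is outer minus inner on that scale. A probe was tested when its detection p was below 0.01 on at least 4 of the 8 arrays, which 26 of the 36 probes and 24 of the 30 genes met. No tested lysosomal probe passed the adjusted threshold of 0.05 in limma (0 of 26), where 0.0597% of the 6698 tested probes passed, 0.0149% as higher and 0.0448% as lower in outer cells. At an unadjusted p below 0.05 there were 2 of 26, CTSZ and 1 probe of GRN, against 8.03% of all tested probes. A count of 0 does not show that the levels were equal, and in samples of this kind fewer cells of a type and less RNA per cell cannot be told apart. The 95% interval of the difference lay within a 2-fold change either way for 11 of the 26 probes (42.3%), against 24.9% of all tested probes.

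The differences had both signs, and the split between them was not tested. Of the 26 probes 10 had a positive difference and 16 a negative one, so that 61.5% were lower in outer cells, against 49.4% of all tested probes. The negative ones include CTSK and MAN2B1, detected on 1 outer array each and on 4 and 3 inner arrays. These passed the detection filter mostly through the inner arrays. The median difference was -0.07, against 0.01 over all tested probes. The 4 outer arrays lay wholly below the 4 inner arrays for 3 probes, those of CD63 and NPC2 and 1 of GRN, and wholly above for 0, where 2.69% of all tested probes lay wholly below and 2.57% wholly above, 5.26% together. For 14 probes the sign of the difference was the same in each of the 20 processing settings that tested the probe. For the other 12 probes it turned in at least 1. Settings that changed only the filter, the variance model or the block leave the difference as it is, so they could not turn it.

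**Figure D1:**
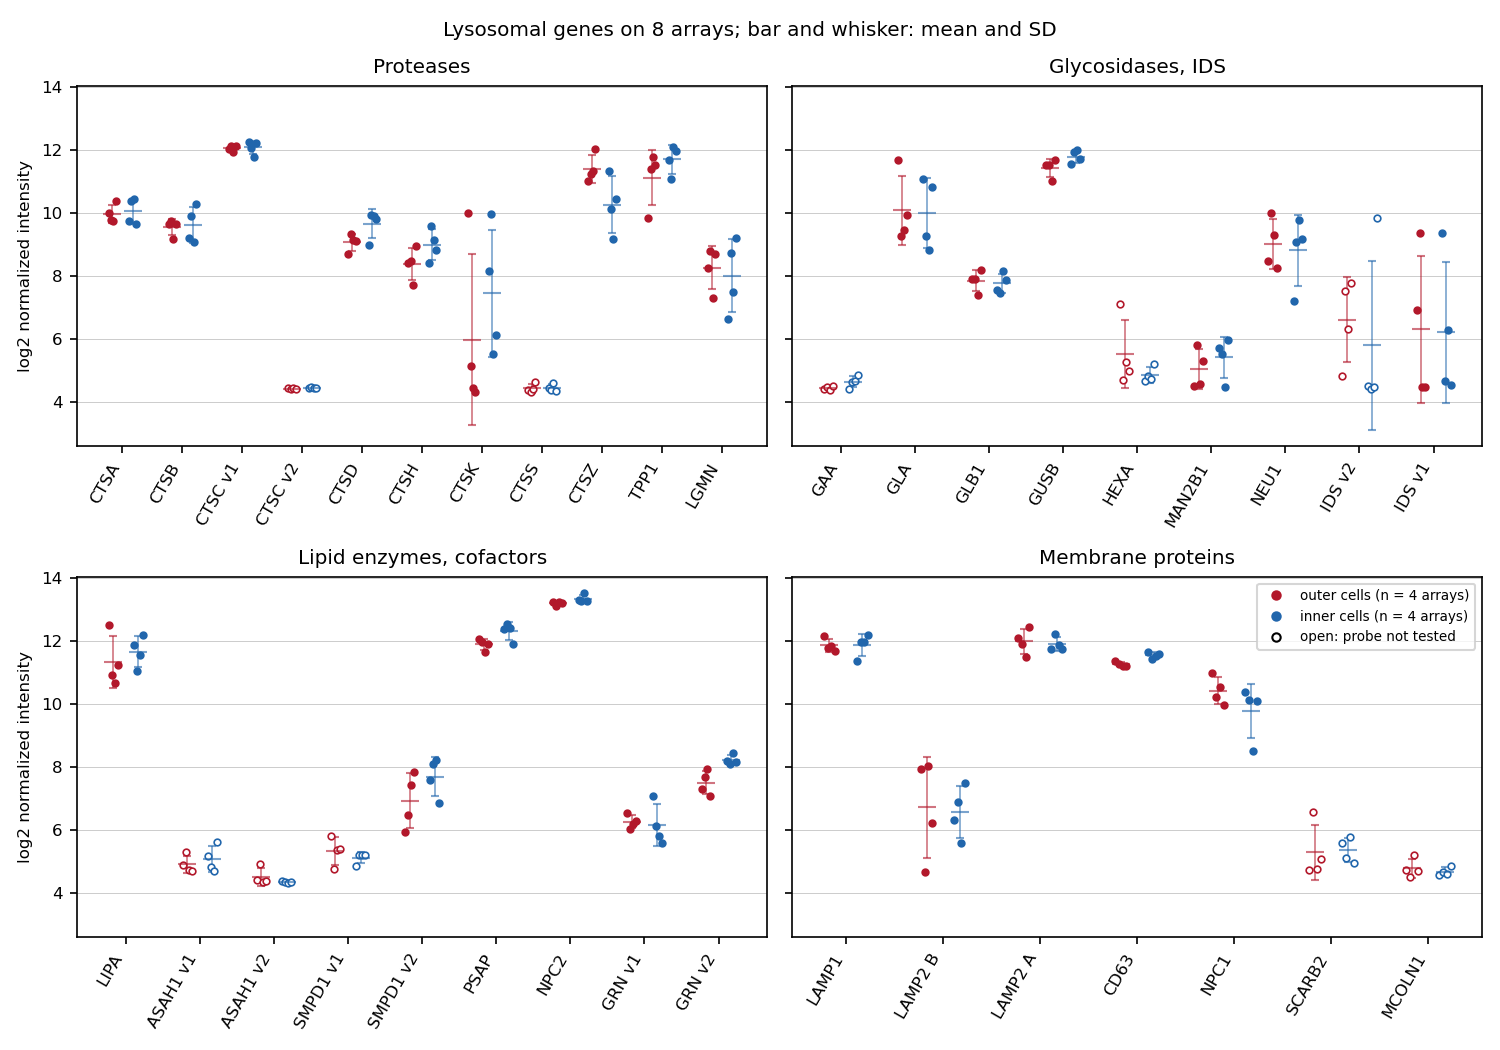
Log2 normalised intensity of all 36 lysosomal probes (y axis) by gene and transcript variant (x axis), in 4 panels by class. Red points are the 4 outer arrays and blue points the 4 inner arrays, open points are probes that were not tested, and bars with whiskers give mean and SD; in CD63 and NPC2 the red points lie below the blue ones, and in CTSK and IDS single arrays stand far above the rest.

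The proteases break down proteins in the lysosome, and most are cysteine cathepsins. Of 10 protease genes 9 were tested, 2 with a positive and 7 with a negative difference, with a median of -0.08 and none past the threshold. CTSZ, a cysteine cathepsin that removes single residues from the carboxyl end of proteins, had the lowest p of the class. Its levels were 11.00, 11.23, 11.34 and 12.04 on the outer arrays and 11.34, 10.11, 9.17 and 10.45 on the inner arrays. Inner array 1 lay among the outer arrays and the other inner arrays lay below all of them, so the groups overlapped through that array. The difference was 1.14 (SE 0.48, 95% interval 0.03 to 2.24, 2.20-fold higher in outer cells), with an unadjusted p of 0.046 and a limma adjusted p of 0.618. Without inner array 1 the groups no longer overlapped.

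CTSD, the main aspartic protease of lysosomes and a gene with an E-box above, measured 8.69, 9.34, 9.15 and 9.11 on the outer arrays and 8.99, 9.94, 9.90 and 9.82 on the inner arrays. Here too inner array 1 lay among the outer arrays and the other inner arrays lay above them. The difference was -0.59 (SE 0.29, 95% interval -1.27 to 0.09), with a limma adjusted p of 0.669. CTSH, a cysteine protease that trims the amino end of proteins, averaged 8.39 ± 0.51 on the outer and 8.99 ± 0.49 on the inner arrays (SD, n = 4 each). Its difference of -0.60 had a limma adjusted p of 0.754, and came to -0.36 with the background estimated from all probes and to -0.37 without outer array 3, its lowest value. TPP1, which removes tripeptides and is lost in a neuronal ceroid lipofuscinosis, averaged 11.12 ± 0.88 and 11.70 ± 0.46. Its difference of -0.58 came to -0.15 without outer array 1, which at 9.83 was its lowest value.

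The remaining tested proteases had means at most 0.25 apart, except CTSK. CTSC, which cuts dipeptides and activates granule proteases of immune cells, has a pair of probes. The probe for variant 1 had narrow ranges of 11.94 to 12.12 and 11.77 to 12.24 on outer and inner arrays. Its difference was -0.02 (95% interval -0.50 to 0.45). The probe for variant 2 was detected on no array, with intensities of 29.3 to 36.4, and was not tested. CTSB, an abundant cysteine cathepsin, had a difference of -0.06 (95% interval -0.83 to 0.70). CTSA, which protects GLB1 and NEU1 in a complex and carries 2 E-boxes above, had a difference of -0.08 (95% interval -0.73 to 0.57). LGMN, an asparaginyl endopeptidase that processes cathepsins, had a wider interval of -1.20 to 1.70 around 0.25. The sign of CTSC, CTSB, CTSA and LGMN turned when single arrays were left out. CTSS, an elastin-cutting cathepsin best known in antigen-presenting cells, was not detected on any array, with intensities of 24.9 to 39.9.

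CTSK, the collagen-cutting cathepsin of osteoclasts, varied more between arrays than the other proteases. Its background-uncorrected intensities were 1195, 49.2, 30.3 and 25.6 on the outer arrays and 227, 1257, 63.2 and 81.0 on the inner arrays. It was detected on 1 outer array and on all 4 inner arrays, and outer array 1 and inner array 2 stood far above the rest. The difference was -1.47 with a 95% interval of -4.97 to 2.03 and a limma adjusted p of 0.862. It came to -2.81 without outer array 1, where the groups no longer overlapped, to -0.63 without inner array 2, and to -0.13 with the background estimated from all probes.

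The glycosidases cut sugar chains from glycolipids, glycoproteins and glycogen, and IDS removes sulfate from heparan and dermatan sulfate. Of these 8 genes 6 were tested, 4 with a positive and 2 with a negative difference, with a median of 0.08, none past the threshold and none with groups that did not overlap. GUSB, the β-glucuronidase often used as a reference transcript, measured 11.51, 11.52, 11.02 and 11.69 on the outer arrays and 11.55, 11.92, 11.98 and 11.71 on the inner arrays. The difference was -0.35 (95% interval -0.90 to 0.19) with a limma adjusted p of 0.775, and -0.22 without outer array 3. GLB1, the β-galactosidase behind the senescence stain, ranged from 7.39 to 8.18 in outer and from 7.46 to 8.16 in inner cells. Its difference of 0.08 had an interval of -0.54 to 0.70, within 2-fold either way.

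GLA and NEU1 varied widely within both groups. GLA, the α-galactosidase lost in Fabry disease, measured 11.67, 9.27, 9.47 and 9.95 on the outer arrays and 11.08, 9.28, 8.84 and 10.82 on the inner arrays. The highest array of each group exceeded the lowest by more than 2 log2 units, and the group difference was 0.08 (95% interval -1.57 to 1.74). NEU1, the lysosomal sialidase, measured 8.49, 10.00, 9.30 and 8.27 on the outer arrays and 7.20, 9.09, 9.77 and 9.18 on the inner arrays, with a difference of 0.21 (95% interval -1.26 to 1.67). The signs of GLB1, GLA and NEU1 turned when single arrays were left out. MAN2B1, the acidic α-mannosidase, was detected on 1 outer and 3 inner arrays at intensities of 31.2 to 77.8, near background, with a difference of -0.38 that came to -0.02 with the background estimated from all probes.

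Of the remaining glycosidases, GAA, which degrades glycogen, was not detected on any array, although its promoter holds 2 E-boxes. HEXA, the α subunit of β-hexosaminidase, was detected on outer array 1 alone, with an intensity of 190 there and 36.2 to 55.8 elsewhere, and was not tested.

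The lipid enzymes degrade sphingolipids and cholesterol esters, and their class also holds PSAP, NPC2 and GRN, which are not such enzymes. Of the 6 genes of the class 5 were tested with 6 probes, 1 with a positive and 5 with a negative difference. Their median of -0.38 was the most negative of the 4 classes, and came to -0.17 with the background estimated from all probes or with no filter on detection. None passed the threshold. For 2 probes, that of NPC2 and 1 of GRN, outer arrays lay wholly below inner arrays, as 2.69% of all tested probes did. Both cases depended on the processing, as given below, and the count is not read as a result about the class. PSAP, the precursor of the saposins that present sphingolipids to their hydrolases, measured 12.06, 11.97, 11.64 and 11.89 on the outer arrays and 12.39, 12.53, 12.40 and 11.91 on the inner arrays. Of the inner arrays, 3 lay above all outer arrays and inner array 4 lay among them. The difference was -0.42 (SE 0.23, 95% interval -0.94 to 0.11), with a limma adjusted p of 0.727.

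NPC2, which binds cholesterol in the lumen and passes it to NPC1, had the least spread of this class at a high signal. It measured 13.24, 13.11, 13.24 and 13.19 on the outer arrays and 13.28, 13.27, 13.51 and 13.25 on the inner arrays. The groups did not overlap, though the nearest arrays were almost level, and they overlapped with median scaling or with the authors' scaled values. The difference was -0.13 (95% interval -0.56 to 0.30) with a limma adjusted p of 0.908, and came to -0.072 without inner array 3, its highest value. LIPA, the acid lipase, measured 12.50, 10.92, 10.65 and 11.21 on the outer arrays and 11.85, 11.04, 11.54 and 12.18 on the inner arrays. Its difference of -0.33 had a limma adjusted p of 0.907, and came to -0.73 without outer array 1 and to -0.11 without outer array 3.

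SMPD1, the acid sphingomyelinase, has a pair of probes, and only the one for transcript variant 2 was tested. That probe averaged 6.92 ± 0.87 on the outer and 7.68 ± 0.62 on the inner arrays (SD, n = 4 each). Its difference was -0.77, with a limma adjusted p of 0.773, and came to -0.14 with the background estimated from all probes and to -0.44 without outer array 1. The probe for variant 1 was detected on 1 outer array. ASAH1, the acid ceramidase, also has a pair of probes. The probe for variant 1 was detected on 1 inner array and that for variant 2 on none, so that neither was tested.

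GRN encodes progranulin, a secreted and lysosomal glycoprotein cut into granulins, and its probes for the 2 transcript variants were both tested. The probe for variant 2 had the lowest adjusted p of all lysosomal probes. Its levels were 7.30, 7.68, 7.93 and 7.08 on the outer arrays and 8.19, 8.08, 8.45 and 8.14 on the inner arrays, so that the groups did not overlap. The difference was -0.72 (SE 0.25, 95% interval -1.30 to -0.13, 1.64-fold higher in inner cells), with an unadjusted p of 0.023 and a limma adjusted p of 0.545. The probe for variant 1 measured 6.52, 6.03, 6.19 and 6.27 against 7.09, 6.11, 5.79 and 5.58, with overlapping groups and a difference of 0.11 whose sign turned in some settings. The difference between the probes' differences was 0.83 (exact two-sided permutation test over the 8 arrays, p = 0.114, adjusted over 2 genes 0.229, smallest possible p 0.0286). With the background estimated from all probes the difference of variant 2 came to -0.20, and with both probes averaged to -0.30, where the groups overlapped.

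**Figure D2:**
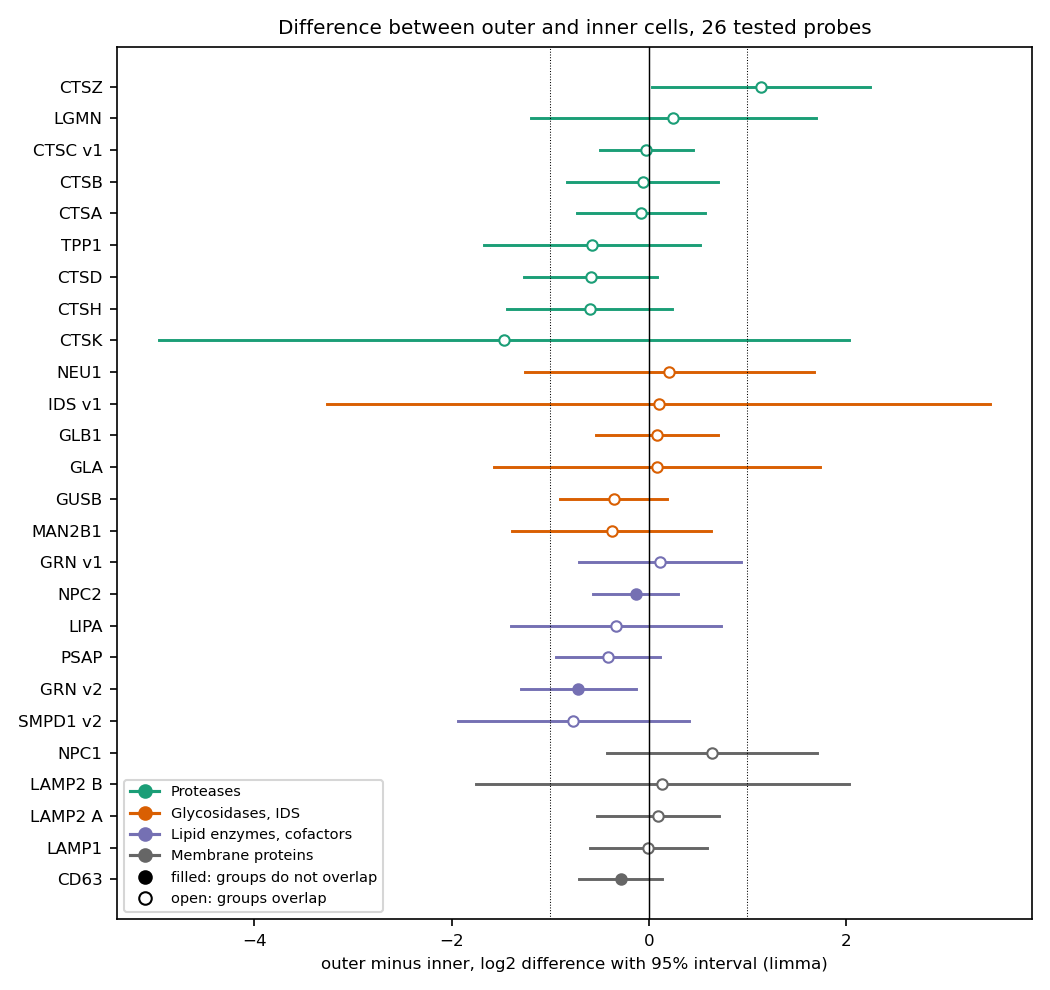
Outer minus inner log2 difference (x axis) with the 95% limma interval of each of the 26 tested lysosomal probes (y axis), coloured by class. Dotted lines mark a 2-fold change, and filled points, those of NPC2, GRN variant 2 and CD63, mark groups that do not overlap.

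The membrane proteins line the lysosome, move lipids and ions across its membrane and sort its enzymes. Of these 6 genes 4 were tested with 5 probes, 3 with a positive and 2 with a negative difference, with a median of 0.10 and none past the threshold. CD63, a tetraspanin of late endosomes, lysosomes and exosomes, had the smallest spread of all tested lysosomal probes. Its levels were 11.36, 11.26, 11.20 and 11.20 on the outer arrays and 11.66, 11.43, 11.50 and 11.57 on the inner arrays. All inner arrays exceeded all outer arrays, as they did with each other background, offset and scaling. The remaining settings kept these values or left an array out, so they could not make the groups overlap. The difference was -0.29 (SE 0.18, 95% interval -0.71 to 0.14, 1.22-fold higher in inner cells), and its limma adjusted p was 0.769, with 0.343 to 0.855 over all settings. The pooled SD between arrays was 0.087.

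LAMP1 and LAMP2, the most abundant lysosomal membrane glycoproteins, had differences near 0, with narrow intervals for LAMP1 and the LAMP2A form. LAMP1, whose promoter is shown above, measured 12.15, 11.75, 11.84 and 11.68 on the outer arrays and 11.34, 11.96, 11.95 and 12.18 on the inner arrays. The difference was -0.00 (95% interval -0.59 to 0.59), so that the interval left out a 2-fold change either way. LAMP2 has probes for splice forms that differ in the transmembrane and cytoplasmic end, of which LAMP2A serves as receptor in chaperone-mediated autophagy. The LAMP2A probe measured 12.09, 11.91, 11.48 and 12.42 against 11.73, 12.20, 11.87 and 11.73, with a difference of 0.10 (95% interval -0.52 to 0.71). The LAMP2B probe was dimmer and more variable, from 4.66 to 8.03 on the outer and from 5.57 to 7.50 on the inner arrays, with a difference of 0.14 (95% interval -1.75 to 2.03). The signs of all 3 of these probes turned when single arrays were left out. The differences of the LAMP2 probes differed by 0.04 (exact two-sided permutation test over the 8 arrays, p = 0.914).

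NPC1, which exports cholesterol from the lysosome, had the largest positive difference of the membrane class. It measured 10.96, 10.22, 10.52 and 9.95 on the outer arrays and 10.37, 10.11, 8.51 and 10.08 on the inner arrays. Inner array 3 was far below the rest, and the other inner arrays lay among the outer ones. The difference was 0.64 (95% interval -0.42 to 1.70) with a limma adjusted p of 0.792, and 0.22 without inner array 3. NPC1 and NPC2, the partners in cholesterol export, thus had differences of opposite sign, neither past the threshold. SCARB2, a heavily glycosylated protein that spans the lysosomal membrane, was detected on 1 outer and 2 inner arrays, and MCOLN1, a calcium channel of the lysosomal membrane, on none.

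**Figure D3:**
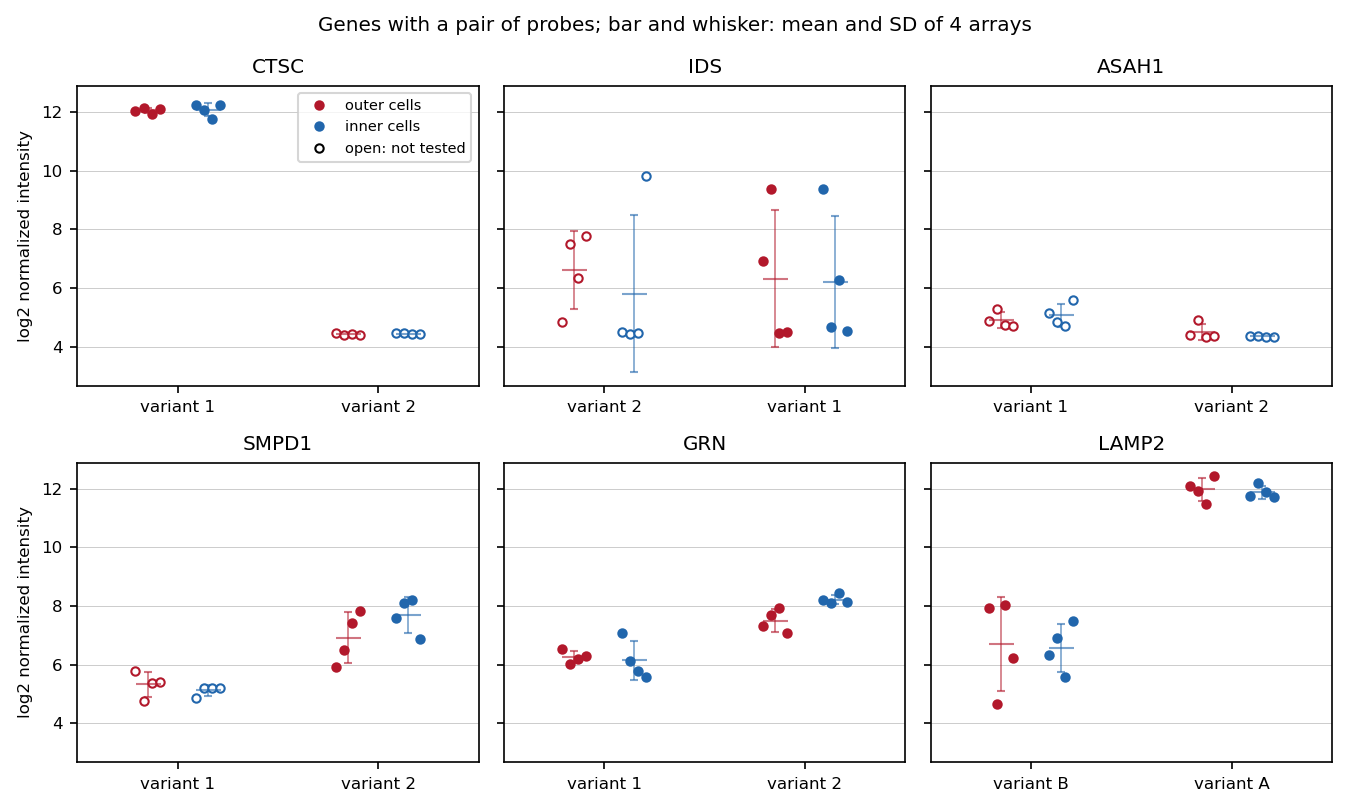
Log2 normalised intensity (y axis) on the 4 outer (red) and 4 inner (blue) arrays for genes with a pair of probes, by transcript variant (x axis), with mean and SD; open points are probes that were not tested. GRN variant 2 separates the groups and variant 1 does not, and both LAMP2 probes overlap.

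Of the 36 probes, 22 were detected on all 8 arrays, 4 on 4 to 7, 5 on 1 to 3 and 5 on none. The 6 genes without a tested probe were CTSS, GAA, HEXA, ASAH1, MCOLN1 and SCARB2. A detection p of 0.01 corresponded to intensities of 51.4 to 77.0 across arrays, so that transcripts below this level were not measurable here. Arrays detected 6429 to 7000 probes in all, and their mean intensity was 344 to 533. IDS, the iduronate sulfatase, lay near this limit on several arrays. Its probe for variant 1 had intensities of 168, 606, 32.1 and 34.2 on the outer arrays and 497, 45.3, 101 and 34.1 on the inner arrays, detected on 2 of 4 in each group. The difference was 0.10 with an interval of -3.26 to 3.46. Its probe for variant 2 had 53.2, 174, 98.9 and 221 on the outer arrays and 31.3, 34.5, 30.9 and 835 on the inner arrays. The deposited detection p called it present on 3 outer and 0 inner arrays, although inner array 4 was the brightest. This probe's detection p did not follow the regular steps of the others, and it was not tested.

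The spread between arrays of a group differed widely among the members. The pooled SD had a median of 0.50 over the tested lysosomal probes and 0.76 over all tested probes. It exceeded 1 in 4 lysosomal probes, those of CTSK, IDS, LAMP2B and GLA, against 37.9% of all tested probes. It was below 0.25 in 5, those of CD63, NPC2, CTSC, PSAP and GUSB, against 11.6% of all. The members with small spread were bright, with group means from 11.26 to 13.33.

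**Figure D4:**
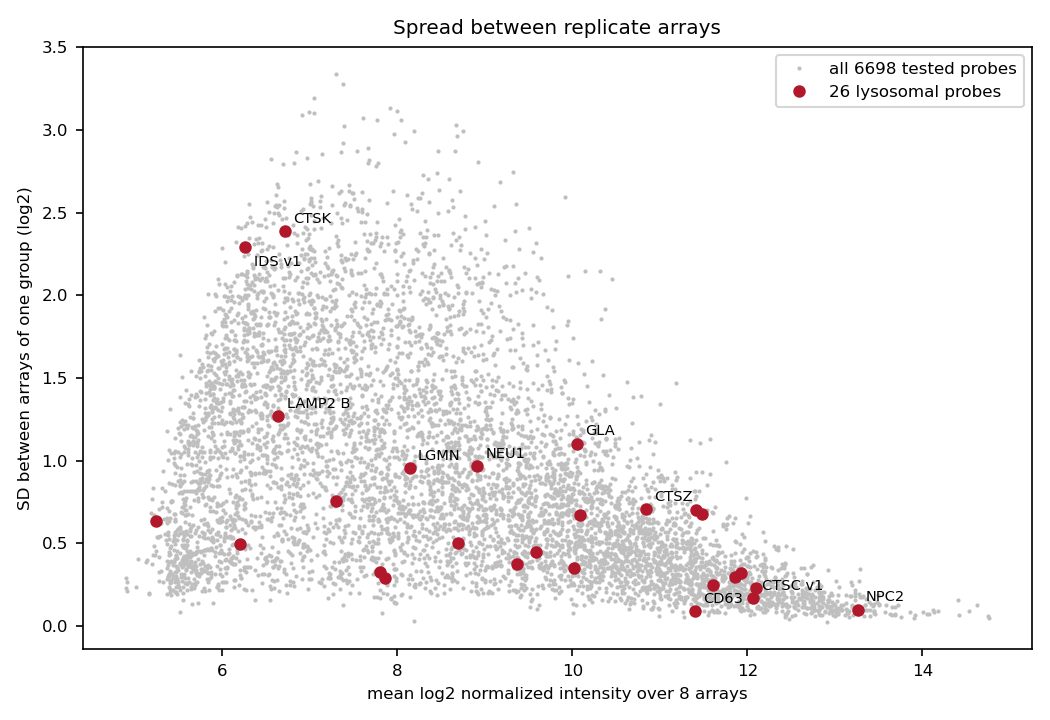
Pooled SD between arrays of a group (y axis, log2) against the mean log2 normalised intensity over 8 arrays (x axis) for the 26 tested lysosomal probes (red) and all 6698 tested probes (grey). CTSK and IDS sit at the top with SDs above 2, and CD63 and NPC2 at the bottom right.

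The differences were also set out by promoter E-box, and whether the motif goes with them was not tested. The 5 tested probes of genes with CACGTG in a window had a median difference of -0.08, with 1 positive and 4 negative. The 15 tested probes of genes with windows but without the motif had a median of -0.13, with 6 positive and 9 negative. The 6 tested probes of genes with no window in the table had a median of 0.02.

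Further lysosomal genes came from 6 lists of 88 genes, of which 83 had a probe and 56 were tested. None passed the adjusted threshold in limma (0 of 56, against 0.0597% of all tested probes), and 4 had an unadjusted p below 0.05, a share near the 8.03% of all tested probes. A positive difference was found in 23 and a negative one in 33, with a median of -0.11, where 49.4% of all tested probes were lower in outer cells. Among 17 tested hydrolases outside the 30 genes, 8 had a positive and 9 a negative difference. CTSL, a cysteine cathepsin, had a difference of 0.50 and SUMF1, which activates sulfatases, one of -1.08, with limma adjusted p of 0.666 and 0.769.

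The V-ATPase subunits, which acidify the lysosome, had 15 tested genes, 8 with a positive and 7 with a negative difference and a median of 0.05. ATP6V1A, the catalytic subunit, averaged 9.96 ± 0.55 in outer and 10.77 ± 0.26 in inner cells, a difference of -0.81. ATP6V1H, a regulatory subunit of the same cytoplasmic domain, averaged 11.31 ± 0.34 and 10.56 ± 0.43, a difference of 0.75. These have opposite signs and the same limma adjusted p of 0.596. ATP6V0A1, a subunit of the membrane domain detected on 5 arrays, had a difference of -0.88, which came to -0.06 with the background estimated from all probes. ATP6AP1, an accessory subunit, had outer arrays wholly below inner arrays, as 2.69% of all tested probes did. It averaged 12.11 ± 0.03 against 12.43 ± 0.28, with a difference of -0.32 and a limma adjusted p of 0.776.

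In mannose 6-phosphate sorting, 6 of 9 genes were tested, 1 with a positive and 5 with a negative difference and a median of -0.36. GGA2, an adaptor that packs the receptors into vesicles, had a difference of -1.72 (95% interval -4.00 to 0.57), which came to -0.69 with the background estimated from all probes. IGF2R, the large mannose 6-phosphate receptor, had one of -0.74 (95% interval -3.18 to 1.71), which came to -0.41 with that background. SORT1, an alternative sorting receptor, and GNPTG, a subunit of the enzyme that makes the tag, had differences of -0.58 and -0.13, and the signs of IGF2R, SORT1 and GNPTG turned in some settings. Among TFEB and mTORC1 regulators 6 of 15 genes were tested, 1 with a positive and 5 with a negative difference and a median of -0.41. LAMTOR3, RRAGC and RRAGA, which hold mTORC1 on the lysosome, had differences of -0.72, -0.50 and -0.32, and MTOR, its kinase, one of 0.28. Their 95% intervals were -2.04 to 0.61, -1.57 to 0.56, -1.11 to 0.47 and -0.41 to 0.96, with limma adjusted p of 0.819 to 0.872. TFEB was detected on 1 array, and its relatives TFE3 and MITF on none.

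Of other membrane proteins 9 were tested, 5 with a positive and 4 with a negative difference and a median of 0.01. OSTM1, a partner of the chloride transporter CLCN7, was detected on 1 outer and 4 inner arrays. Its intensities were 30.3, 427, 38.4 and 28.6 on the outer arrays and 113 to 191 on the inner arrays. The difference was -1.56. Over other settings it ran from -2.67 to 0.00, with limma adjusted p from 0.055 to 0.999, and 0.00 came with the background estimated from all probes. LMBRD1, which helps to export cobalamin, had a difference of 0.63, CD68 one of -0.49 and LAPTM4A one of -0.24. These came to 0.37, -0.10 and -0.06 with that background. The cystatins, which inhibit cysteine cathepsins, had 3 tested genes, with differences of -0.39 for CSTB, -0.06 for CSTA and -0.01 for CST3, where the signs of CSTA and CST3 turned in some settings.

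**Figure D5:**
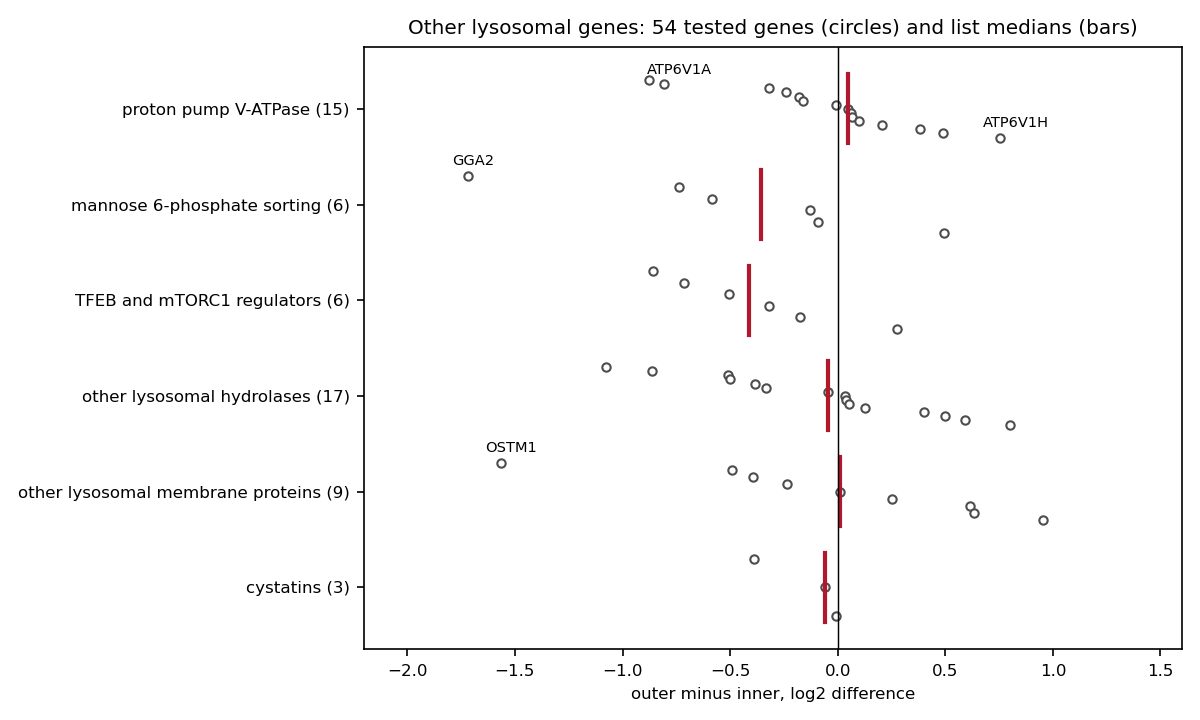
Outer minus inner log2 difference (x axis) of 54 of the 56 further tested lysosomal genes (circles) in 6 lists (y axis, number tested in brackets), with the median over all tested genes of a list as a red bar. Circles spread to both sides of 0 in most lists, and GGA2 at -1.72 lies farthest from it among those drawn.

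Markers of other cell types were read beside these values. Of 10 breast epithelial markers 8 were tested, among them KRT5, KRT14, KRT17 and EPCAM, and their summed intensity was 8056 to 9310 on outer and 6189 to 10646 on inner arrays, while CDH1 was not detected. Of the 8 tested, 3 had a positive and 5 a negative difference, with a median of -0.08. KRT8 had outer arrays wholly below inner arrays, as 2.69% of all tested probes did. Its difference was -0.55, with a limma adjusted p of 0.638, and came to -0.11 with the background estimated from all probes. KRT17, KRT5 and KRT7 had positive differences of 0.31, 0.12 and 0.08. The KRT18 probe for variant 2 had intensities of 903 to 1346 but was called present on 2 arrays, so it was not tested. Of 10 leukocyte markers, whose cells are rich in lysosomal proteases, only CSF1R was tested and 5 were detected on no array, with a summed intensity of 574 to 810 on outer and 535 to 1347 on inner arrays. Of 6 fibroblast markers COL1A2 and DCN were tested, with sums of 1525 to 4536 and 1528 to 4768, and all 3 endothelial markers were undetected. Their part in the lysosomal values was not tested.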

How the data were processed

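Mean bead intensity per probe was deposited by the authors, with neither background subtraction nor normalisation, per the file headers. The detection p-value, also deposited, follows regular steps for 92.5% of probes. A deposited ratio divides intensity by the array's mean. The scanning software is not given in the sources used here. Arrays were grouped by title, 4 outer and 4 inner. The 8 columns of bead standard errors were not used.

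Background was corrected by normexp in limma 3.58.1 (R 4.3.3), with parameters inferred, as neqc does, from the 19052 probes on the regular steps, then an offset of 16, quantile normalisation and log2. Over all probes neqc infers a background mean of 96.5 to 126 in place of 31.1 to 38.4, and draws dim probes together, so it is an alternative here. This choice was made with results of both known. A probe that had no beads on 1 array was dropped. Group alone entered lmFit and eBayes, and Benjamini-Hochberg adjustment ran over all 6698 tested probes. The fit was tested on simulated data.

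Members and lists were chosen with earlier results of these data known. All members are named, with up to 4 genes of the smallest p per further list. TFEB, TFE3, MITF and CDH1 were named after their values were seen. Older symbols were updated through RefSeq names or probe definitions. Results for some genes that the rule names are not reported here. Levels of different probes were not tested against one another, and words such as bright and dim describe a probe's signal. Sequences come from RefSeq windows (GRCh38.p14). Alternatives were other backgrounds, offsets, scalings, filters and variance models, a replicate block, averaging the probes of a gene and omitting each array in turn. The number of arrays limits the precision.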

Additional observations from a re-analysis of the deposited data

Results flagged for a closer look

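Of 52 groups of 4 values, 5 held an array whose gap to the nearest other array of its group exceeded the 95% critical value of Dixon's test as a share of the group's range, where chance gives about 1 in 20. CTSB was 9.19 on outer array 3 and 9.64 to 9.73 on the other outer arrays. CTSD was 8.99 on inner array 1 and 9.82 to 9.94 on the other inner arrays, and this low array is the one by which its groups overlap. CTSK was 10.00 on outer array 1 and 4.33 to 5.15 on the other outer arrays. NPC2 was 13.51 on inner array 3 and 13.25 to 13.28 on the other inner arrays. NPC1 was 8.51 on inner array 3 and 10.08 to 10.37 on the other inner arrays. NPC2 and NPC1 stood apart on the same array in opposite directions.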

How the results depend on the processing

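No lysosomal probe passed the threshold in any of the 19 other settings. Of 490 values of single lysosomal probes under them, 456 kept their sign and 34 turned it, in 12 probes. The 456 include the settings of filter, variance model and block, in which the sign could not turn. The probes past the threshold among all tested, 4 in the reported fit, numbered 1 with the background from all probes, 2 with an offset of 50, 2 with no filter on detection, 0 with detection on all 8 arrays, 0 with the replicate block, and 1 to 7 when an array was left out. The block was fitted because titles share numbers. Deviations of same-numbered arrays from their group means had correlations of -0.01 to 0.04. The inner array with the highest correlation had the same number for outer arrays 1, 2 and 3, and was inner array 2 for outer array 4. These low correlations cannot settle whether the arrays were paired. The block does not change the values, so it could not change which lysosomal probes did not overlap. Leaving out an array gave 3 to 6 non-overlapping lysosomal probes (6 without inner array 1). With fewer arrays groups separate more easily, and groups already apart stay apart. No share of all tested probes stands beside these counts, so they are not read as a result about the lysosomal genes. The median over all lysosomal probes was then -0.22 to -0.057. Class medians were -0.24 to -0.00 for proteases, -0.25 to 0.17 for glycosidases, -0.45 to -0.24 for lipid enzymes and cofactors and -0.10 to 0.20 for membrane proteins. The lipid class median was -0.17 with the background from all probes and -0.17 with no filter. Signs turned when an array was left out, within -0.21 to 0.046 for CTSA, -0.25 to 0.16 for CTSB, -0.13 to 0.030 for CTSC, -0.21 to 0.65 for LGMN, -0.44 to 0.44 for GLA, -0.027 to 0.24 for GLB1, -0.33 to 0.52 for NEU1, -0.91 to 1.15 for IDS, -0.072 to 0.43 for GRN variant 1, -0.18 to 0.10 for LAMP1, -0.054 to 0.26 for LAMP2A and -0.30 to 0.82 for LAMP2B. GRN variant 1 also came to -0.00081 with the background from all probes and -0.30 with probes averaged, where it is joined with variant 2. The cause of these changes was not tested. Probes near background on most arrays, such as that of MAN2B1, had values that moved with the background estimate.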
